A study of Mus musculus with 8 samples.

Results

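The major milk proteins of the mouse are 5 caseins and 2 whey proteins, encoded by Csn1s1, Csn1s2a, Csn1s2b, Csn2, Csn3, Wap and Lalba. They were followed through sorted mammary epithelial cells with and without the transcription factor C/EBPb. The genes were found by their symbol in the array's annotation, which gave 13 of 45101 probe sets for these 7 of 18194 genes. For each gene the values below are those of its brightest probe set, by mean over all arrays, and the other 6 probe sets serve as a check. Levels are on the log2 scale, as deposited, and a level of one probe set cannot be set against that of another, so the genes are not ranked by abundance.

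Mammary epithelial cells were taken from knockout (KO) glands, which lack C/EBPb in the germline (C/EBPb-/-), and from wildtype (WT) glands. The cells of each genotype were negative for the LIN markers and were sorted by FACS into CD24hiCD29lo cells (CD29lo below) and CD24+CD29hi cells (CD29hi below), which gives 4 groups of 2 arrays. Per the labels there were 2 paired sets of glands with 10 mice per group, and the arrays of a group are biological replicates. A germline knockout removes the factor from every cell of the animal and not from the epithelium alone. The labels used here give no strain, age or reproductive stage, nor the deleted part of Cebpb.

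Caseins are the phosphoproteins that bind calcium and pack into the micelles of milk. Alpha-S1-casein (Csn1s1), beta-casein (Csn2) and the alpha-S2-like caseins (Csn1s2a and Csn1s2b) are the calcium-sensitive caseins, and kappa-casein (Csn3) covers the micelle surface and keeps it in solution. In the whey, alpha-lactalbumin (Lalba) is the subunit that turns a galactosyltransferase into lactose synthase, and whey acidic protein (Wap) is a small secreted protein with WAP domains. Their genes are known as targets of prolactin acting through STAT5, together with glucocorticoid receptor, ELF5 and C/EBPb, and they are strongly induced in the alveolar cells of pregnancy and lactation.

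The casein genes lie together on chromosome 5, in the order Csn1s1, Csn2, Csn1s2a, Csn1s2b and Csn3, with other genes between the last of them. Wap is on chromosome 11 and Lalba on chromosome 15. The 300 bases around the transcription start (250 before it and 50 after it) are shown for the 3 caseins whose signal lay below background in KO cells, to set those promoters side by side. They come from RefSeq on GRCm38.p6, where 5 of the 7 genes matched an entry, and Csn1s2b and Csn3 did not. Capitals mark a match to the STAT5 motif TTCNNNGAA or to the glucocorticoid receptor motif TGTTCT, each searched on both strands. Csn1s1 is at chr5:87665958-87666257 on the plus strand, Csn2 at chr5:87699376-87699675 on the minus strand and Csn1s2a at chr5:87774200-87774499 on the plus strand, each written 5′ to 3′ in the direction of the gene.
Csn1s1: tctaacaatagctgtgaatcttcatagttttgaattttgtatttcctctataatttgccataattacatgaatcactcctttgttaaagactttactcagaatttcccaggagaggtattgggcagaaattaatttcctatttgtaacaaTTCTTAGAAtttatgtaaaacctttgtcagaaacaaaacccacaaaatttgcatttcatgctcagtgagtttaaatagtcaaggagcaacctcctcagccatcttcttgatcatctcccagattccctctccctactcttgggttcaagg
Csn2: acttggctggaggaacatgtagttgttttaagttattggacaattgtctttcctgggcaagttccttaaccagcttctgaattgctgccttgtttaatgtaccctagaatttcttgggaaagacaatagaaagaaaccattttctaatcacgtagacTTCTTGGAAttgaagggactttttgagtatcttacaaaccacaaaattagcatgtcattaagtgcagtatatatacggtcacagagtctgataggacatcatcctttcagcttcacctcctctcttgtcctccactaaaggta
Csn1s2a: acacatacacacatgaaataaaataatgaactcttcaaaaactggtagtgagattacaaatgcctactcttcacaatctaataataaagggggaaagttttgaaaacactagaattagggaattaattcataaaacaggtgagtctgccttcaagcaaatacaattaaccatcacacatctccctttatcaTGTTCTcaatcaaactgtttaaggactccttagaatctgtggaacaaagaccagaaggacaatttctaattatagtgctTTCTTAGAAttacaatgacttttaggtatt
The STAT5 motif was found once in each of these promoters, as TTCTTAGAA starting at position -100 of Csn1s1, as TTCTTGGAA at -93 of Csn2 and as TTCTTAGAA at 21, after the start, in Csn1s2a. That motif stands in 8.3% of the 32851 promoters of the same length in the table. TGTTCT was found in Csn1s2a at -59, and 19.0% of all promoters hold it. Neither motif was found in the windows of Wap (chr11:6638600-6638899, minus strand) and Lalba (chr15:98482634-98482933, minus strand). The C/EBP core searched, TTGCNNAA, was in none of the 5 windows against 10.8% of all promoters, and TATAAA was in none against 13.6%. No motif overlapped another. The matches describe these letters and are no evidence of binding.

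A signal was read against the background of its array, set at the 95th percentile of 27 bacterial control probe sets, which lay between 3.84 and 4.41. Of the 56 pairs of a milk protein gene and an array, 39 lay above it. Differences were tested with limma over the 14598 genes whose mean passed the 25th percentile of all probe sets (3.51), with p-values adjusted over all of them and a threshold of 0.05. All 7 genes passed that filter, but Csn1s1, Csn2 and Csn1s2a passed through WT cells alone, since none of the 4 KO arrays reached 3.51 for any of them. Cebpb itself read 9.23 and 8.89 in KO CD29lo, against 11.83 and 12.18 in WT CD29lo. In the other gate it read 8.60 and 9.38 in KO CD29hi, against 11.95 and 12.25 in WT CD29hi. Averaged over the gates its log2 fold change was -3.03 (limma adjusted p = 0.00277), but which part of the gene its probe set reads relative to the deletion is not given. Arrays of 1 group correlated at 0.931 (KO CD29lo) to 0.954 (KO CD29hi) over all probe sets. P-values measure the spread between these 2 arrays per group only. The fit treats the CD29lo and CD29hi arrays of a genotype as independent, although the cells of each genotype were sorted into both gates. The averaged contrast may thus count the same glands in both gates, and its p-values are to be read with that limit.

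Alpha-S1-casein was the milk protein gene with the smallest adjusted p between the genotypes. Csn1s1 read 1.96 and 2.23 in KO CD29lo, against 7.27 and 7.82 in WT CD29lo. In the other gate it read 2.45 and 1.89 in KO CD29hi, against 5.43 and 6.10 in WT CD29hi. All 4 KO arrays were below background, all 4 WT arrays were above it, and the genotypes did not overlap in either gate. In bulk samples such as these, fewer cells of a type and less RNA per cell cannot be told apart.

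In CD29lo cells Csn1s1 fell by 5.45 ± 0.479 on the fitted log2 scale in KO (SE, limma adjusted p = 0.0271). Set against the background, which is all that a signal below it allows, it was at least 9.57-fold lower in KO CD29lo than in WT CD29lo. It was 1 of the 7 milk protein genes called lower there, beside 0.0137% of all 14598 genes. In CD29hi cells the log2 fold change was -3.60 ± 0.479 (limma adjusted p = 0.104), at least 3.66-fold lower, which did not pass. Averaged over both gates Csn1s1 fell by 4.52 ± 0.339 in KO (limma adjusted p = 0.00326), at least 5.91-fold. The CD29lo call was lost when any 1 array other than KO CD29hi replicate 2 was left out (adjusted p up to 0.494), while the averaged call held in each of these 8 fits (adjusted p = 0.0103 to 0.044).

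Beta-casein followed the same split. Csn2 read 1.28 and 2.25 in KO CD29lo, against 5.84 and 7.44 in WT CD29lo. It read 2.10 and 1.03 in KO CD29hi, against 5.05 and 5.91 in WT CD29hi. The KO arrays were again all below background and the WT arrays all above it, without overlap. Averaged over both gates Csn2 fell by 4.40 ± 0.503 in KO (limma adjusted p = 0.0383), at least 3.92-fold. Neither gate passed on its own: Csn2 was at least 5.11-fold lower in KO CD29lo than in WT CD29lo (limma adjusted p = 0.16) and at least 3.0-fold lower in KO CD29hi than in WT CD29hi (limma adjusted p = 0.251). The CD29lo bound was 2.94 when WT CD29lo replicate 2 was left out and 8.90 when replicate 1 was. The averaged call rested on a narrow margin, since it was lost when any array but KO CD29lo replicate 2 was left out (adjusted p up to 0.284).

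With Csn1s1, Csn2 made 2 of 7 milk protein genes called lower in the averaged contrast, where 0.0617% of all genes were called lower. Both genes passed the filter through WT cells alone. This count and that of Csn1s1 in CD29lo, set against the share of all genes, are therefore descriptions and carry no test. In CD29hi cells limma called 0 of the 7, beside 0.0137% of all genes called lower. There 4 of the 7 had an unadjusted p under 0.05, as did 7.84% of all genes.

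The alpha-S2-like casein Csn1s2a had the lowest fitted log2 fold change of all 14598 genes in CD29lo cells and in the averaged contrast, and it did not pass the test. Csn1s2a read 0.71 and 3.39 in KO CD29lo, against 6.84 and 9.99 in WT CD29lo. It read 3.20 and 2.98 in KO CD29hi, against 7.12 and 8.56 in WT CD29hi. Every KO array was below background and every WT array above it, but the replicates of KO CD29lo and those of WT CD29lo lay further apart than those of either CD29hi group.

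The log2 fold change of Csn1s2a was -6.37 ± 1.13 in CD29lo (limma adjusted p = 0.307) and -4.75 ± 1.13 in CD29hi (limma adjusted p = 0.307). Averaged over both gates it was -5.56 ± 0.802 (limma adjusted p = 0.0821). As bounds these were at least 17.5-fold lower in KO CD29lo than in WT CD29lo, at least 15.4-fold lower in KO CD29hi than in WT CD29hi, and at least 16.4-fold lower on average. They rested on single WT arrays: the CD29lo bound was 5.87 when WT CD29lo replicate 2 was left out and 52.1 when replicate 1 was. The CD29hi bound was 9.35 without WT CD29hi replicate 2 and 25.4 without WT CD29hi replicate 1, and the averaged bound 9.51 and 28.3 without WT CD29lo replicate 2 and 1. Among the 14598 fitted fold changes in CD29lo, Csn1s2a, Csn1s1 and Csn2 held ranks 1, 2 and 3 from the lowest. In CD29hi they held ranks 3, 13 and 10. These ranks use fitted values below background and say nothing of the spread.

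**Figure D1:**
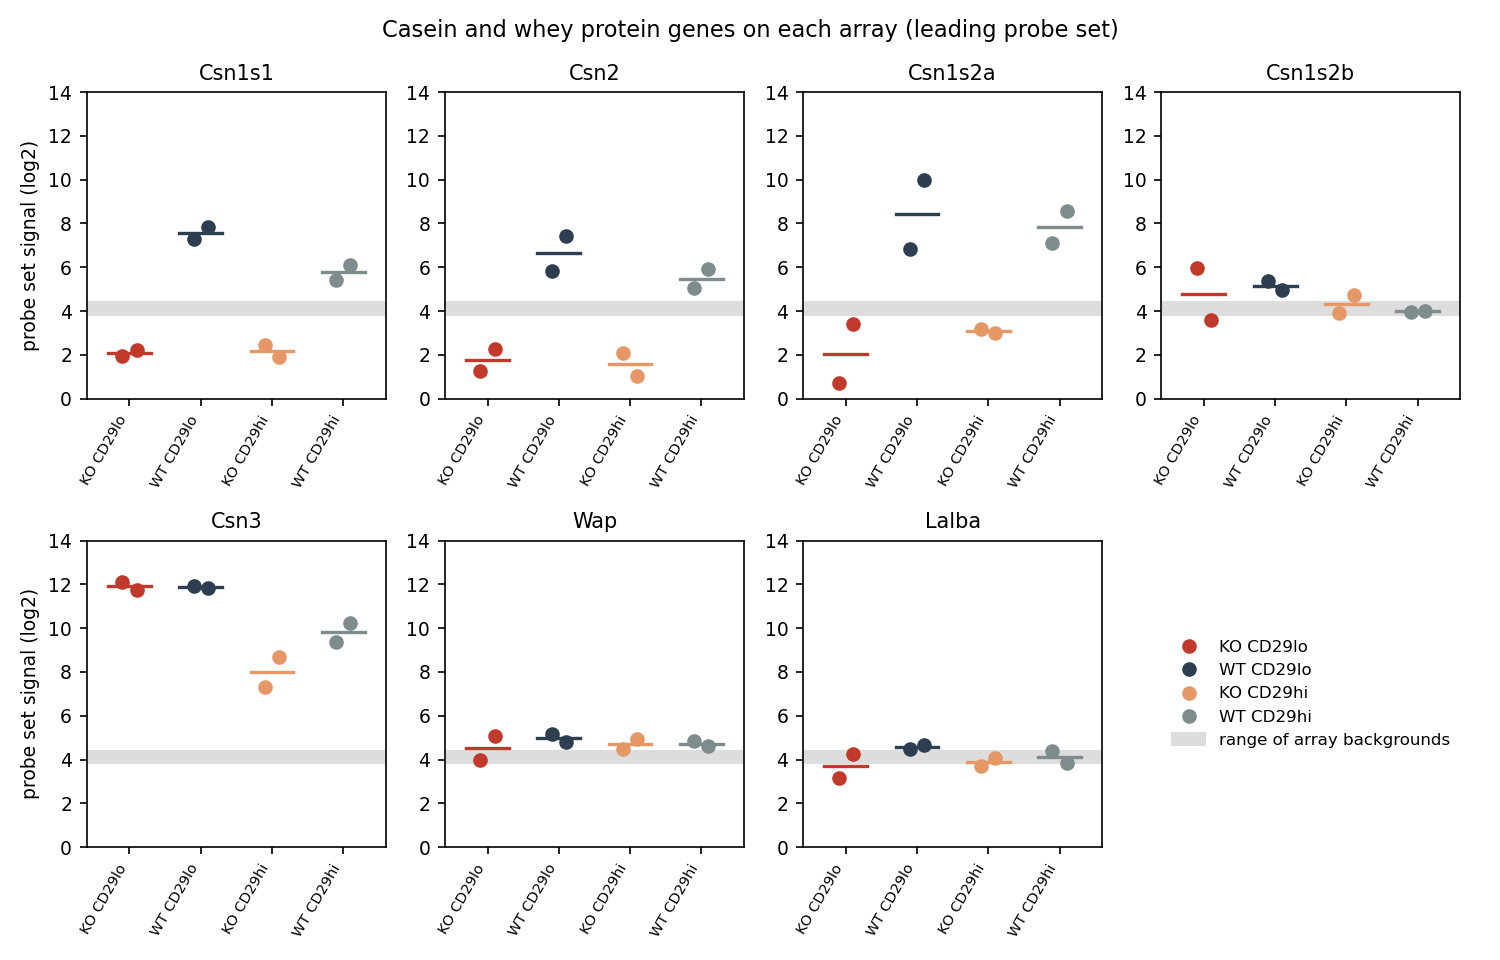
Log2 level of each milk protein gene on each of the 8 arrays, by group, with a bar at the mean of the 2 arrays and a grey band for the range of the array backgrounds (3.84 to 4.41). Csn1s1, Csn2 and Csn1s2a lie under the band in all 4 KO arrays and over it in all 4 WT arrays, Csn3 is bright everywhere, and Csn1s2b, Wap and Lalba stay near the background.

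The WT arrays of these 3 caseins also differed between replicates in one direction. In both WT gates the array numbered 2 read higher than the array numbered 1 for Csn1s1, Csn2 and Csn1s2a. For Csn1s2a the gap between the WT CD29lo replicates (9.99 and 6.84) exceeded the difference between the gates (0.58 on the log2 scale).

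Fibroblast markers were uneven between replicates. Median log2 fold changes of fibroblast, endothelial and blood markers in KO were below 0 in CD29lo, without a call. The mean of 10 fibroblast markers was 7.96 and 10.81 in KO CD29lo, against 9.84 and 11.54 in WT CD29lo. In CD29hi cells it was 6.11 and 7.49 in KO CD29hi, against 5.77 and 7.03 in WT CD29hi. It was higher in the array numbered 2 of every group, and the KO CD29lo pair overlapped the WT CD29lo pair with both its lower and its upper value below theirs, with 8 to 10 markers above background and none at 0 on any array.

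In CD29lo cells, where Csn1s1 was called, all 10 fibroblast markers had a log2 fold change below 0 in KO, with a median of -1.40, against -0.06 over all genes. So did 5 of 6 endothelial markers (median -0.66) and 3 of 5 tested blood markers (median -0.77), against 56.1% of all genes. The blood marker of smallest p there, Tyrobp, was higher in KO, at 1.31 (limma adjusted p = 0.749). In CD29hi cells the medians were 0.65 for fibroblast, 0.14 for endothelial and 0.77 for blood markers, against -0.015 over all genes. In both gates limma called 0 markers of these 3 lists, and 1 endothelial marker in CD29lo had an unadjusted p under 0.05. The part of these cells in the casein differences was not tested.

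Kappa-casein was bright in CD29lo cells of both genotypes. Csn3 read 12.09 and 11.76 in KO CD29lo, against 11.92 and 11.83 in WT CD29lo. It read 7.33 and 8.69 in KO CD29hi, against 9.36 and 10.25 in WT CD29hi. The CD29lo groups overlapped, and in CD29hi both KO arrays lay below both WT arrays, with all 8 arrays far above background. The log2 fold change in CD29lo was 0.05 ± 0.432 with a 95% interval of -0.94 to 1.04 (limma adjusted p = 0.985). In CD29hi it was -1.80 ± 0.432, or 3.47-fold lower in KO (unadjusted p = 0.00293 in limma, adjusted p = 0.307), which did not pass. That fold was 2.17 without KO CD29hi replicate 1 and 5.56 without KO CD29hi replicate 2.

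The genotype differences of Csn3 and Csn1s1 leaned opposite ways between the gates. The interaction, the difference in CD29lo minus that in CD29hi, was 1.85 ± 0.611 for Csn3 (limma adjusted p = 0.961). For Csn1s1 it was -1.86 ± 0.678 (limma adjusted p = 0.961), from KO values that were below background in both gates. Both had an unadjusted p under 0.05, as did 4.95% of all genes, and limma called 0 of the 7 milk protein genes and 0% of all genes in either direction. A difference between the gates in the effect of the knockout was therefore not shown for any of them.

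In CD29hi cells 6 of 7 luminal progenitor markers had a log2 fold change below 0 in KO, with a median of -0.69, against -0.015 over all genes. Limma called 0 of them, and 2 had an unadjusted p under 0.05. Of these 7 markers 6 were above background on KO CD29hi replicate 1 and all 7 on every other array, with none at 0. Their mean was 5.74 and 6.79 in KO CD29hi, against 7.13 and 7.47 in WT CD29hi. In the other gate it was 9.02 and 8.42 in KO CD29lo, against 8.73 and 8.68 in WT CD29lo. Among them Elf5, an alveolar transcription factor, read 3.99 and 6.94 in KO CD29hi, against 9.14 and 8.17 in WT CD29hi. The 12 basal markers averaged 11.98 and 11.73 in KO CD29hi, against 11.89 and 12.18 in WT CD29hi, and 8.0 and 7.41 in KO CD29lo, against 7.94 and 7.80 in WT CD29lo. The 10 luminal markers averaged 10.91 and 11.04 in KO CD29lo, against 10.94 and 10.98 in WT CD29lo. They averaged 9.38 and 9.26 in KO CD29hi, against 9.30 and 9.56 in WT CD29hi. The hormone-sensing list averaged 6.70 and 7.30 in KO CD29hi, against 6.66 and 6.87 in WT CD29hi. In CD29hi the part of the progenitor content in the level of Csn3 was not tested.

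**Figure D2:**
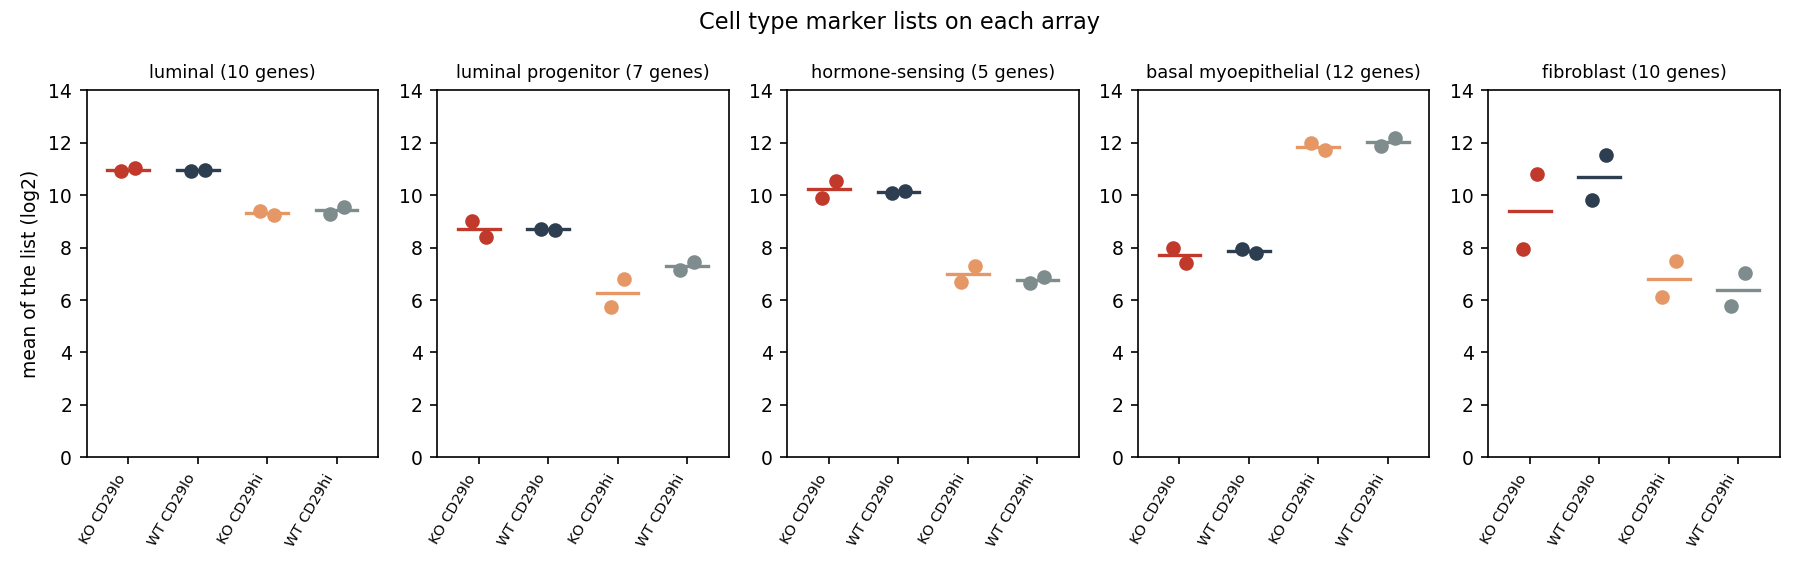
Mean log2 level of 5 lists of cell type markers on each array, with a bar at the group mean. The luminal, progenitor and basal means of KO CD29lo lie close to those of WT CD29lo, the progenitor mean of KO CD29hi lies below that of WT CD29hi, and the fibroblast mean is lower in KO CD29lo than in WT CD29lo and uneven between replicates.

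The remaining milk protein genes stayed close to the background in every group. Csn1s2b read 5.95 and 3.57 in KO CD29lo, against 5.37 and 4.96 in WT CD29lo. It read 3.89 and 4.73 in KO CD29hi, against 3.98 and 4.01 in WT CD29hi. The genotypes overlapped in both gates, KO CD29lo replicate 2 was below background, and the KO CD29lo pair spread over the whole range of the gene. The averaged log2 fold change was -0.05 (limma adjusted p = 0.987), so the alpha-S2-like gene next to Csn1s2a in the casein cluster gave no call.

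Both whey protein genes were as dim. Wap read 3.98 and 5.06 in KO CD29lo, against 5.15 and 4.81 in WT CD29lo. It read 4.47 and 4.92 in KO CD29hi, against 4.83 and 4.61 in WT CD29hi. The genotypes overlapped in both gates and only KO CD29lo replicate 1 was below background. The averaged log2 fold change of Wap was -0.24 (limma adjusted p = 0.868).

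Lalba read 3.17 and 4.26 in KO CD29lo, against 4.48 and 4.67 in WT CD29lo. It read 3.72 and 4.09 in KO CD29hi, against 4.39 and 3.83 in WT CD29hi. It was above background on 5 of the 8 arrays, and the genotypes overlapped in CD29hi but not in CD29lo. Its log2 fold change was -0.86 ± 0.523 in CD29lo (limma adjusted p = 0.804) and -0.21 in CD29hi (limma adjusted p = 0.971). At levels this near the background a change of the whey protein genes would be hard to detect on these arrays.

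Over the 7 genes the median log2 fold change in KO was -0.86 in CD29lo, against -0.06 over all genes tested, and -1.80 in CD29hi, against -0.015 over all genes. In CD29lo 4 of the 7 lay lower in both KO arrays than in both WT arrays, as did 19.6% of all genes, and in CD29hi 4 of the 7, as did 21.2%. With all 4 KO arrays below all 4 WT arrays there were 3 of the 7 (Csn1s1, Csn2 and Csn1s2a), against 2% of all genes. These 3 caseins passed the filter through WT cells alone, so the count against that share is a description and carries no test. Lalba gave the median in CD29lo, and Csn3, by its brightest probe set, gave it in CD29hi. Each was also the gene without overlap beside those 3 caseins in that gate.

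**Figure D3:**
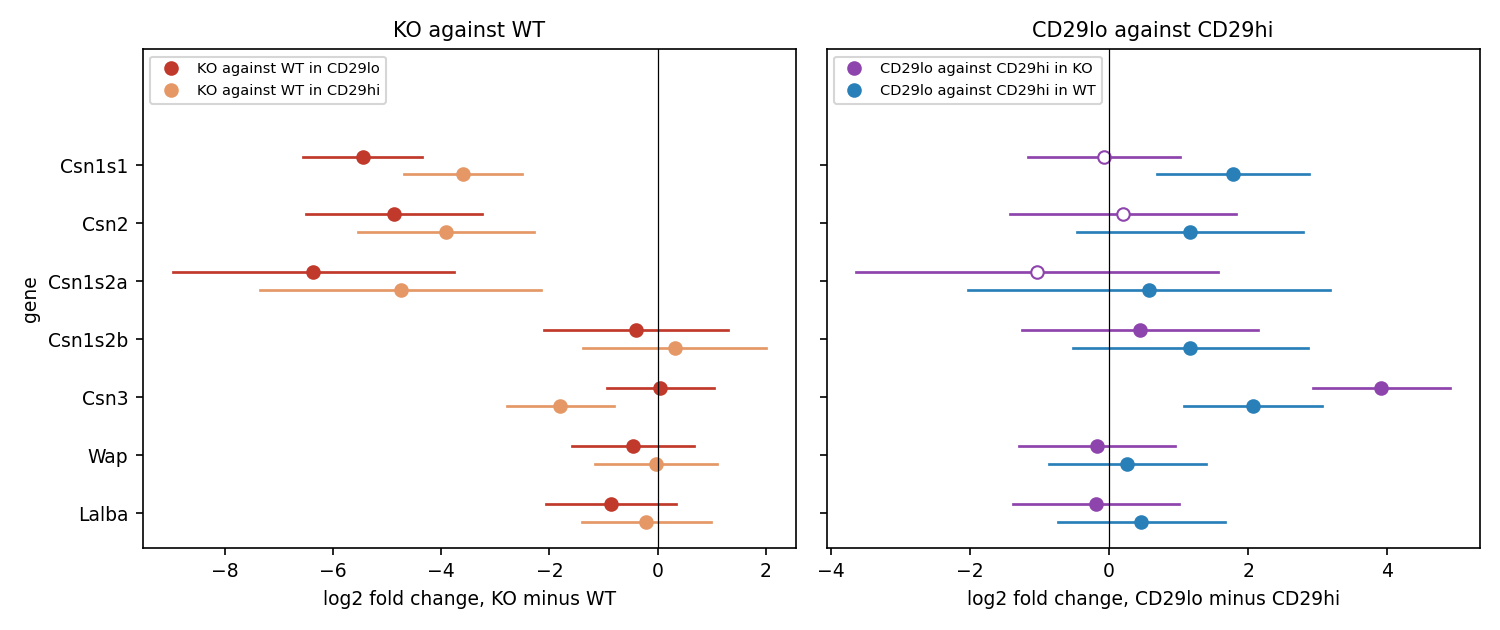
Fitted log2 fold change with its 95% interval for the 7 genes, KO against WT on the left and CD29lo against CD29hi on the right, with hollow points where both groups were below background. KO against WT is far below 0 for Csn1s1, Csn2 and Csn1s2a in both gates, where KO values lay below background, and Csn3 stands out above 0 in CD29lo against CD29hi.

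Between the sorted populations, kappa-casein was the milk protein gene that differed. Csn3 was 15.1-fold higher in KO CD29lo than in KO CD29hi, a log2 fold change of 3.92 ± 0.432 (limma adjusted p = 0.00115). It was 9.42-fold without KO CD29hi replicate 1, 24.2-fold without KO CD29hi replicate 2, and 1.85 on the log2 scale with the mean of its probe sets (limma adjusted p = 0.021). In WT cells it was 4.2-fold higher in CD29lo than in CD29hi, 2.07 ± 0.432 (limma adjusted p = 0.0225). It was the 1 of the 7 genes called higher in KO CD29lo, beside 6.66% of all genes, and the 1 called higher in WT CD29lo, beside 4.23% of all genes. The luminal list was also higher in CD29lo, with 8 of its 10 markers called in each genotype. Its medians were 1.47 in KO and 1.41 in WT. So was the hormone-sensing list, with 5 of 5 markers called in each genotype. Of 10 fibroblast markers 4 were called higher and 1 lower in KO, and 7 higher in WT, with medians of 3.15 and 5.2. Of 12 basal markers 10 were called lower in KO and 11 in WT. The part of these cells in the level of Csn3 was not tested. The WT call of Csn3 was lost with the mean of its probe sets (log2 fold change 0.69, limma adjusted p = 0.387) and without WT CD29lo replicate 1 (limma adjusted p = 0.112), WT CD29lo replicate 2 (limma adjusted p = 0.0892) or WT CD29hi replicate 1 (limma adjusted p = 0.135). It was also lost without a trend (limma adjusted p = 0.0759) and with both CD29lo arrays numbered 2 left out (limma adjusted p = 0.0797).

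Csn1s1 was 3.43-fold higher in WT CD29lo than in WT CD29hi without passing (log2 fold change 1.78 ± 0.479, limma adjusted p = 0.0608), and the pairs of arrays did not overlap. Csn2 was 1.16 ± 0.711 higher (limma adjusted p = 0.397) and Csn1s2a 0.58 ± 1.13 (limma adjusted p = 0.823), both with overlapping arrays. Csn1s2b was 1.17 higher in WT CD29lo (limma adjusted p = 0.414) without overlap. In all, 4 of the 7 genes lay higher in both WT CD29lo arrays than in both WT CD29hi arrays, as did 26% of all genes. All 3 of Csn1s1, Csn2 and Csn1s2a were below background in KO CD29lo and in KO CD29hi, so no fold between the gates can be given there. In each WT gate they were above background on both arrays. In WT CD29hi all 10 luminal, all 7 luminal progenitor and all 12 basal markers were also above background on both arrays. Which of these cells gave the casein signal there cannot be told from bulk samples. For Wap and Lalba the gate differences were small in KO (-0.18 and -0.19) and in WT (0.26 and 0.47), and none passed.

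The other probe sets of these genes gave a check of 3 caseins. The second probe set of Csn1s2a read 1.5 and 2.81 in KO CD29lo, against 6.07 and 9.09 in WT CD29lo. In the other gate it read 1.19 and 1.48 in KO CD29hi, against 6.21 and 7.70 in WT CD29hi. It had the same split by genotype and the same uneven WT pairs (averaged log2 fold change -5.52, limma adjusted p = 0.0733 with every probe set tested). The second probe set of Csn2 read 1.61 and 2.24 in KO CD29lo, against 3.28 and 6.09 in WT CD29lo. In the other gate it read 2.41 and 2.40 in KO CD29hi, against 1.81 and 5.74 in WT CD29hi. It was above background only in the WT arrays numbered 2.

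For Csn3 the second probe set went the other way. It read 5.92 and 4.56 in KO CD29lo, against 4.24 and 3.83 in WT CD29lo. In the other gate it read 5.38 and 5.53 in KO CD29hi, against 4.43 and 5.04 in WT CD29hi. All KO arrays but the second of CD29lo lay above all WT arrays, with an averaged log2 fold change of 0.96 (unadjusted p = 0.0408 in limma, adjusted p = 0.646). This dim probe set thus shows no loss of Csn3 in KO CD29hi, and the 2 probe sets disagree there and between the gates. Of the 3 further probe sets of Csn1s2a, 1 was above background on 1 array and the others on none. Csn1s1, Csn1s2b, Wap and Lalba have 1 probe set each, without a second reading here.

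**Figure D4:**
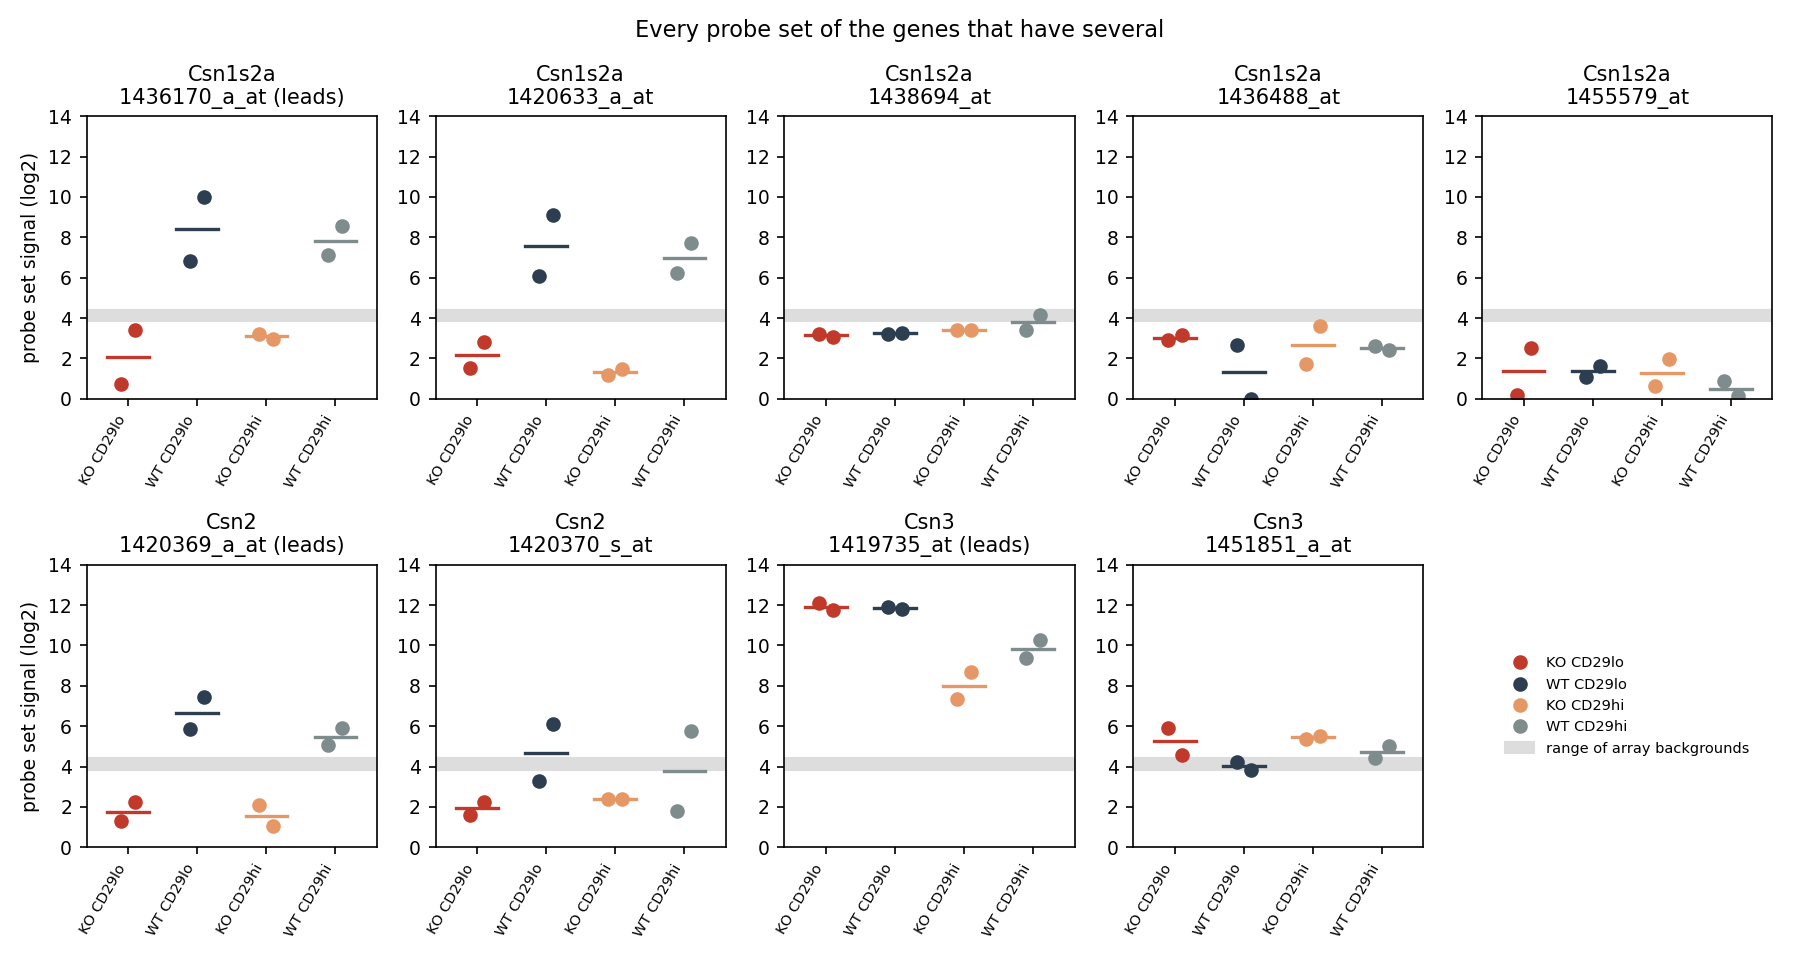
Log2 levels of every probe set of the genes that have more than 1, on the 8 arrays, with a bar at each group mean and a grey band for the range of the array backgrounds. The second probe set of Csn1s2a runs parallel to the first, and the second probe set of Csn3 is dim and does not follow the bright one.

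Genes lying among and beside the caseins were read to see whether the difference extended along the chromosome. Of 17 such genes in the RefSeq order, 8 had a value, 4 were tested and limma called 0 in the contrasts of KO against WT, where 1 gene had an unadjusted p under 0.05. That gene was the estrogen sulfotransferase gene Sult1e1, which read 4.57 and 4.34 in KO CD29lo, against 3.23 and 4.15 in WT CD29lo. It read 4.34 and 3.86 in KO CD29hi, against 3.28 and 0.68 in WT CD29hi. Sult1e1 was thus higher in KO without overlap in both gates, as were 14.7% of all genes in CD29lo and 18.3% in CD29hi. The averaged log2 fold change was 1.44 (limma adjusted p = 0.498). This gene was above background on 4 of the 8 arrays and below it on both WT CD29hi arrays, so the size of its difference is not reliable. Cabs1 was the 1 called neighbour, higher in KO CD29lo than in KO CD29hi by 2.13 (limma adjusted p = 0.0248). It was above background on 3 of the 8 arrays and below it on both KO CD29hi arrays (2.61 and 3.12), so the size of its difference is not reliable either. Around Wap 4 of 10 neighbours were tested and around Lalba 1 of 10, again with 0 called between genotypes and 0 at an unadjusted p under 0.05.

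**Figure D5:**
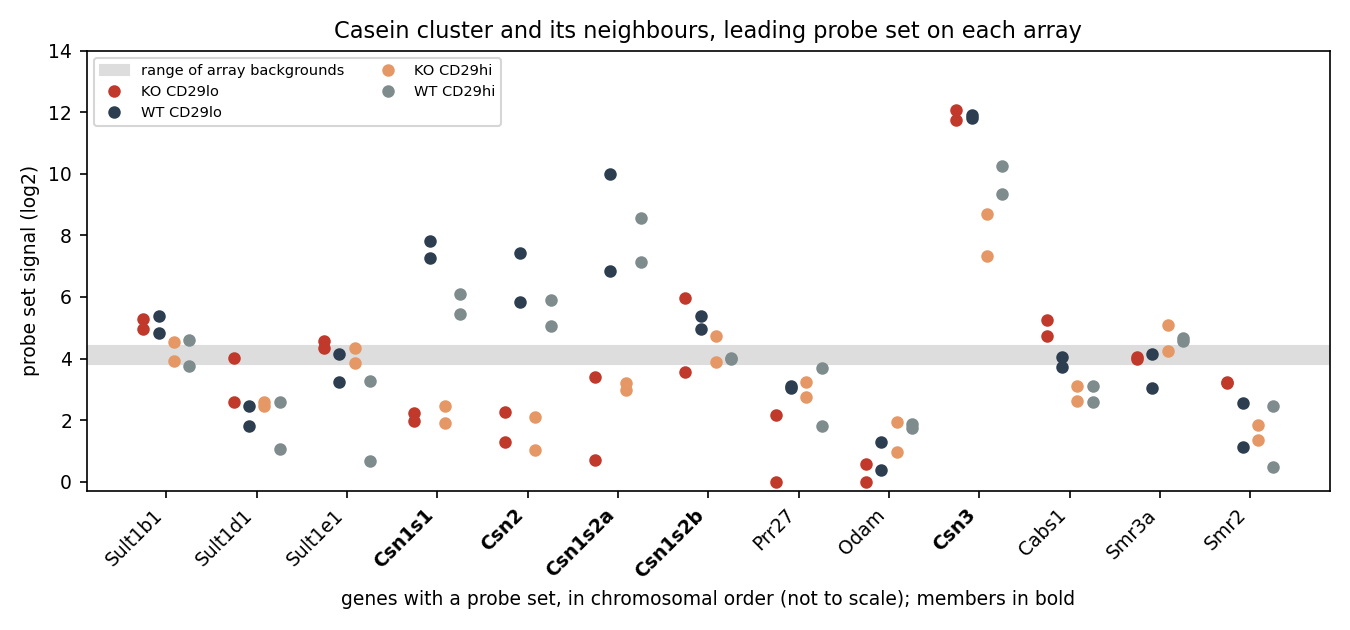
Log2 level on each array of the genes with a probe set in the casein region of chromosome 5, in chromosomal order and not to scale, with a grey band for the range of the array backgrounds. Csn1s1, Csn2 and Csn1s2a split by genotype, Csn3 is bright on all 8 arrays, and the neighbours lie near or below the band.

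Among known regulators of milk genes the deleted factor was the one that passed between genotypes. Of 34 listed regulator symbols, with Rank and Tnfrsf11a naming the same gene, 29 genes had a value and 27 were tested. Cebpb was the 1 called in the contrasts of KO against WT. At an unadjusted p under 0.05 there were 7 of the 27 in the averaged contrast, against 9.27% of all genes, and 7 in CD29hi, against 7.84%. Both counts include Cebpb, the deleted gene itself. Averaged, the cyclin gene Ccnd1 was at 0.60 (limma adjusted p = 0.228), the cytokine signalling inhibitor Socs2 at 0.83 (limma adjusted p = 0.346) and the RANK receptor gene Tnfrsf11a at -1.62 (limma adjusted p = 0.361). The median was -0.01, against -0.045 over all genes. Stat5a, which carries the prolactin signal, read 9.34 and 10.98 in KO CD29lo, against 10.26 and 10.55 in WT CD29lo. It read 8.55 and 8.83 in KO CD29hi, against 7.52 and 9.0 in WT CD29hi, with overlap in both gates. Elf5 had a log2 fold change of -3.19 ± 0.858 in CD29hi (limma adjusted p = 0.366). Between the gates 9 of the 27 were higher in KO CD29lo than in KO CD29hi, Elf5 by 4.57 (limma adjusted p = 0.0104) and Stat5b by 1.02 (limma adjusted p = 0.0274), and 4 were higher in WT CD29lo than in WT CD29hi. Over all genes 6.66% were called higher in KO CD29lo and 4.23% in WT CD29lo.

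Of 20 symbols listed for other milk proteins, with Expi and Wfdc18 naming the same gene, 16 genes had a value and 15 were tested. Among these 1 was called between genotypes, and the median averaged log2 fold change was -0.10, against -0.045 over all genes. Slpi, a secreted protease inhibitor with WAP domains, read 4.99 and 3.21 in KO CD29lo, against 8.99 and 8.60 in WT CD29lo. It read 8.90 and 8.65 in KO CD29hi, against 12 and 11.81 in WT CD29hi. Slpi was thus lower in KO in both gates without overlap, with an averaged log2 fold change of -3.91 ± 0.362 (limma adjusted p = 0.013). Lactoferrin (Ltf), the iron-binding whey protein, was -2.16 in CD29hi (limma adjusted p = 0.169) and lipocalin (Lcn2) -1.36 (limma adjusted p = 0.251). Like Csn3, Ltf was higher in CD29lo than in CD29hi, by 3.90 in KO (limma adjusted p = 0.000529) and by 2.07 in WT (limma adjusted p = 0.0105).

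The profile of the 7 genes over the arrays was compared with that of every other gene tested, by Pearson's r with the mean of the 7 over 8 arrays. Saa1, an acute phase protein, was closest (0.977), followed by Fbxl20 (0.958), Anxa8 (0.955), Adam17 (0.953) and Wdr45 (0.947). The mean follows the 3 caseins that differ most, the 8 points fall into a KO and a WT cluster, and so these values describe that split and carry no test.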

How the data were processed

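RNA of 8 sorted samples was measured on Affymetrix mouse arrays, 1 per sample. Per the labels' protocols, RNA was isolated with a PicoPure kit, amplified with a NuGEN FFPE kit and labelled with biotin. The deposited values are log2 levels per probe set, from 0 to 14.42 with array medians of 5.45 to 5.67; the scale was read from the values, and the authors' normalization stands in none of the sources read. The values were used as deposited. Probe sets were named from a platform annotation of 2016 (34958 with 1 gene, 932 with several, 9211 with none), of which 34754 matched a RefSeq gene ID. The array numbers limit the precision.

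Tests used limma 3.58.1 under R 4.3.3 (lmFit on the 4 groups, eBayes with a trend, 4 residual and 4.31 prior degrees of freedom, two-sided, Benjamini-Hochberg over 14598 genes). The share of probe sets above background was 64.7% to 71.2% per array. A group with no array above background was raised to it for the fold, which is then a lower bound. Plots were made with matplotlib 3.10.9 (Python 3.11.15). The genes, lists, tests and alternatives were chosen with earlier results of these data known. The genes named are the 7 milk protein genes, Cebpb, the listed genes of smallest p and those most like the mean profile; Sult1e1, Cabs1, Stat5a and Stat5b were chosen after their values were seen. Listed genes that share a probe set with another gene or had no match, such as Prlr and Spp1, are not analysed here.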

Additional observations from a re-analysis of the deposited data

How the results depend on the processing

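Of the 7 genes, the number called lower in KO CD29lo against WT CD29lo (1) was 0 with a filter at the 50th percentile, where Csn1s1 was too dim to be tested, with only the arrays compared, with values raised to at least 4 and with both CD29lo arrays numbered 2 left out, and 0 to 1 over the 8 fits without 1 array. The number called lower in the averaged contrast (2) was 0 with the 50th percentile filter, 1 with the mean of all probe sets, with every probe set tested, without a trend, with values raised to 4 and with both CD29lo arrays numbered 2 left out, and 1 to 3 without 1 array. The number called between the gates in WT (1) was 0 with the mean of probe sets and with both CD29lo arrays numbered 2 left out, 2 with values raised to 4, where Csn1s1 joined Csn3 (limma adjusted p = 0.0251), and 0 to 1 without 1 array. Without a trend it stayed 1, but Csn3 lost its call (limma adjusted p = 0.0759) and Csn1s1 gained one (limma adjusted p = 0.0433). Csn1s1 in the averaged contrast lost its call only with both CD29lo arrays numbered 2 left out (limma adjusted p = 0.0529), and Csn3 in KO kept its gate call in all 20 settings. Some differences that had not passed changed sign: Csn1s2b was 0.58 in CD29lo, 0.45 averaged and 0.27 in the interaction, and Csn1s2a -1 between the WT gates, with both CD29lo arrays numbered 2 left out; Csn1s2b was 0.085 averaged and Lalba 0.085 between the KO gates with values raised to 4; Csn3 was 0.045 averaged with the mean of probe sets, against -0.87 with its brightest probe set. Without 1 array, KO against WT in CD29lo ranged from -1.60 to 0.79 for Csn1s2b, -0.12 to 0.22 for Csn3 and -1 to 0.08 for Wap. In CD29hi it ranged from -0.11 to 0.74 for Csn1s2b, -0.25 to 0.20 for Wap and -0.49 to 0.075 for Lalba. The average ranged from -0.64 to 0.55 for Csn1s2b and -0.51 to 0.0275 for Wap, and the interaction from -1.91 to 0.47 and from -0.98 to 0.11. Between the KO gates Csn1s2b ranged from -0.74 to 1.64, Wap from -0.72 to 0.37 and Lalba from -0.74 to 0.36, and between the WT gates Csn1s2a from -1 to 2.15. The cause was not tested.

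With the replicate number as a block, 1, 0 and 3 of the 7 were called in CD29lo, in CD29hi and averaged, where Csn1s2a also passed (limma adjusted p = 0.0225), and 1 in each gate contrast. Another fit took arrays of the same genotype and replicate number as a pool of glands, used as a random block. There Csn1s1 kept its call in CD29lo (limma adjusted p = 0.0275). The pairing is not given by the labels for each number: differences between replicates correlated at 0.321 between KO CD29lo and WT CD29lo and at 0.00563 between KO CD29hi and WT CD29hi. With the 99th percentile of the controls as background, 34 of the 56 values lay above it. Signal near background limits Csn1s2b, Wap and Lalba, and a group of 2 arrays limits every test.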

Other observations

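Other components of milk gave no call between genotypes apart from Slpi. Of 15 milk fat secretion genes tested, limma called 0 between genotypes in either gate or averaged, where 3 had an unadjusted p under 0.05 and the median log2 fold change was -0.18, against -0.045 over all genes. Plin2, which coats lipid droplets, was lower in KO CD29hi than in WT CD29hi by a log2 fold change of -1.88 ± 0.242 (limma adjusted p = 0.104) and by -1.24 averaged (limma adjusted p = 0.0692), neither of which passed. Cidea, a lipid droplet protein, was higher in CD29lo than in CD29hi by 3.33 in KO (limma adjusted p = 0.00464) and by 3.14 in WT (limma adjusted p = 0.00861). Of 15 genes for lactose synthesis and mineral transport limma called 0 between genotypes, with 3 at an unadjusted p under 0.05 and a median of -0.19 in the averaged contrast. Of 16 early pregnancy and alveolar genes the 1 called in the averaged contrast was Csn1s1 itself. In CD29hi limma called 0 of the 16, and 7, Csn1s1 among them, had an unadjusted p under 0.05, against 7.84% of all genes. There 11 of the 16 were below 0 in KO, with a median of -0.665, against -0.015 over all genes. In CD29lo 6 of the 16 were below 0, with a median of 0.06, against -0.06 over all genes.

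Among relatives of the whey proteins, Wfdc2, another WAP domain gene, was higher in CD29lo than in CD29hi by 3.27 in KO (limma adjusted p = 0.000221) and by 2.53 in WT (limma adjusted p = 9e-04). Of 13 WAP domain genes tested, Slpi was the 1 called between genotypes. Of 6 genes of the lysozyme family, to which alpha-lactalbumin belongs, limma called 0 between genotypes, with 0 at an unadjusted p under 0.05, and Lyzl4 was higher in KO CD29lo than in KO CD29hi by 2.64 (limma adjusted p = 0.0241).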
